A study of Mus musculus with 14 samples.

Results

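Immediate early genes are transcribed within minutes of a stimulus without new protein synthesis, and 10 of them were followed here in mouse brain cells after morphine: Fos, Fosb, Fosl2, Jun, Junb, Egr1, Egr3, Arc, Npas4 and Nr4a1. They were looked up by symbol, though the 10 and all gene lists below were chosen with earlier results of these data known. All 10 were found among the 24846 genes kept from the nucleus accumbens tables and among the 32960 genes of the sorted-cell table. The study gave male C57BL/6 mice morphine sulfate or saline (called mock) by injection into the peritoneum, and the labels used here state neither dose nor time. The accumbens was dissociated with papain and run by Drop-seq, a droplet method that counts transcripts per cell by unique molecular identifiers (UMIs).

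The accumbens groups were 4 pools of morphine mice and 4 pools of mock mice, each pool made from 2 mice. In both groups pools 1 and 2 came from mice of 37 to 45 days (younger below) and pools 3 and 4 from mice of 78 to 82 days (older below). The sorted groups were 3 morphine and 3 mock libraries of bulk RNA-seq, made from oligodendrocytes, the myelin-forming cells, sorted by flow cytometry from whole brains at 70 days. Every sample passed through papain dissociation, which is itself known to switch on these genes, and no sample taken without dissociation was analysed here.

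In textbook terms the proteins fall into a few roles. Fos, FosB and Fra-2 (from Fosl2) pair with Jun and JunB to form AP-1, a transcription factor that binds the sites of many later response genes. Egr1 and Egr3 are zinc finger transcription factors, Npas4 is a neuron-specific factor that follows calcium entry, Nr4a1 is an orphan nuclear receptor, and Arc is not a transcription factor but a synaptic protein that regulates AMPA receptor trafficking. In the striatum, of which the accumbens is the ventral part, their induction in medium spiny neurons is the classical mark of a response to drugs of abuse.

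The promoters of 4 genes are shown. Those of Fos, Npas4 and Nr4a1 hold letters through which calcium and cAMP signals are known to reach this family, and that of Jun holds an element of its own. Nr4a1 and Jun were also picked because they moved in opposite directions in the sorted cells, and no link between letters and direction was tested. Each run is the 250 bases before the RefSeq start (GRCm38.p6), read 5′ to 3′ on the gene's strand, with capitals at the cAMP response element (CRE) core TGACG or its reverse complement CGTCA, at the TATA box TATAAA, and at the Jun element TGACATCA. The windows lie at chr12:85473640-85473889 for Fos (plus strand), chr19:4989972-4990221 for Npas4 (minus strand), chr15:101266596-101266845 for Nr4a1 (plus strand) and chr4:95052223-95052472 for Jun (minus strand).
Fos: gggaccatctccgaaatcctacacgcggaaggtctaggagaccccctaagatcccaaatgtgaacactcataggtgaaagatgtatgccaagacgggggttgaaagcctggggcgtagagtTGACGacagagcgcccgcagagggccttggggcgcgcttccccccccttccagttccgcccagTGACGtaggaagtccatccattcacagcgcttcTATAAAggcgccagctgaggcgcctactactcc
Npas4: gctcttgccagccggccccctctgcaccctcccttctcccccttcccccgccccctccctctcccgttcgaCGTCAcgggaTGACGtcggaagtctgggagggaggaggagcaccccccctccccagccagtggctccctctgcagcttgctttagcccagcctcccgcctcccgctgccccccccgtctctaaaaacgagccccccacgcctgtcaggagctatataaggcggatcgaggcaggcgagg
Nr4a1: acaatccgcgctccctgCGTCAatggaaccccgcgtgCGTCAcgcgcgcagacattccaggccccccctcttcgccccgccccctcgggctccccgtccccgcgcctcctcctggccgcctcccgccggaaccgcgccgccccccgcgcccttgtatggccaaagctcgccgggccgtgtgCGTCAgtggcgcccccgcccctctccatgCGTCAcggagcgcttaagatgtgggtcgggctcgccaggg
Jun: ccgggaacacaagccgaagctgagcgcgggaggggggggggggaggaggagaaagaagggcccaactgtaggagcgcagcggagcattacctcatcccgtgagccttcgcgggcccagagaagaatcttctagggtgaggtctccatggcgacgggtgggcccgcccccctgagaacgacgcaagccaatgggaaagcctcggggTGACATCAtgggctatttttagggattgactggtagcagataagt
RefSeq promoter windows were matched for 7 of the 10 genes and searched on both strands over 300 bases, 250 before and 50 after the start. The CRE core was present in 5 of the 7, with 4 matches in Nr4a1, 2 each in Fos and Npas4 and 1 each in Fosb and Junb, against 20.81% of all 32851 promoters. TATAAA was present in Fos and Junb, against 13.62% of all promoters. The letters TGACATCA were present in Jun alone of the 7, against 3.619% of all promoters. The full CRE TGACGTCA (1.79% of promoters, and a sequence that contains the core), the AP-1 site TGANTCA (7.808%) and the CArG box (1.629%) were not found in these windows. These matches describe letters and not occupied sites.

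In the GRCm38 assembly (mm10) Fos lies at chr12:85473890-85477273, Fosb at chr7:19302696-19310051, Fosl2 at chr5:32135801-32157842, Jun at chr4:95049034-95052222 and Junb at chr8:84974484-84978718. Egr1 lies at chr18:34859823-34864984, Egr3 at chr14:70077203-70082614, Arc at chr15:74669083-74672570, Npas4 at chr19:4984355-4990316 and Nr4a1 at chr15:101254269-101274795. Exons of Jun overlap those of Junos and exons of Junb those of Prdx2 on the other strand, so values of Jun and Junb may hold reads of these neighbours.

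Depth was uneven between pools. The kept cells of a pool held 6703052 to 19950613 UMIs in morphine pools and 7846553 to 22988184 UMIs in mock pools. The median share of mitochondrial UMIs per pool was 4.8% to 7.0% in morphine pools and 3.01% to 4.61% in mock pools. Every morphine pool thus lay above every mock pool in this share, and its part in the accumbens results was not tested. In all, 32341 cells were kept, and 47 of 35944 distinct barcodes occurred in more than 1 pool. Gene-assigned depth in the sorted set ran from 14989118 to 23456702 reads per library. Intervals given below cover counting error only.

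In the sorted oligodendrocytes Arc and Jun fell and Nr4a1 rose after morphine. Arc was at 26.9, 25.5 and 24.6 CPM (the usual depth-scaled read count) in the 3 morphine libraries, against 65.2, 54.1 and 64.5 CPM in the 3 mock libraries. Every morphine library lay below every mock library, and the log2 fold change was -1.23 (SE 0.0827, adjusted p = 3.7e-10 by edgeR's quasi-likelihood test over all genes). Jun, the AP-1 subunit that can also pair with itself, was at 28.6, 36.2 and 32.5 CPM in morphine libraries, against 46.9, 48.2 and 52.7 CPM in mock libraries. These groups did not overlap either, with a log2 fold change of -0.58 (SE 0.0806, edgeR adjusted p = 1.63e-05).

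Nr4a1 went the other way, with 6.64, 5.68 and 4.39 CPM in morphine libraries and 3.57, 3.14 and 3.41 CPM in mock libraries. Each morphine library exceeded each mock library, and the log2 fold change was 0.74 (SE 0.19, edgeR adjusted p = 0.00951). Without the morphine library at 6.64 CPM its log2 fold change was 0.58 and the call was lost (edgeR adjusted p = 0.0915). The authors' deposited table for these libraries gives -1.17 for Arc, -0.54 for Jun and 0.67 for Nr4a1 on the log2 scale, with adjusted p-values of 3.12e-26, 2.57e-06 and 0.0191.

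**Figure D1:**
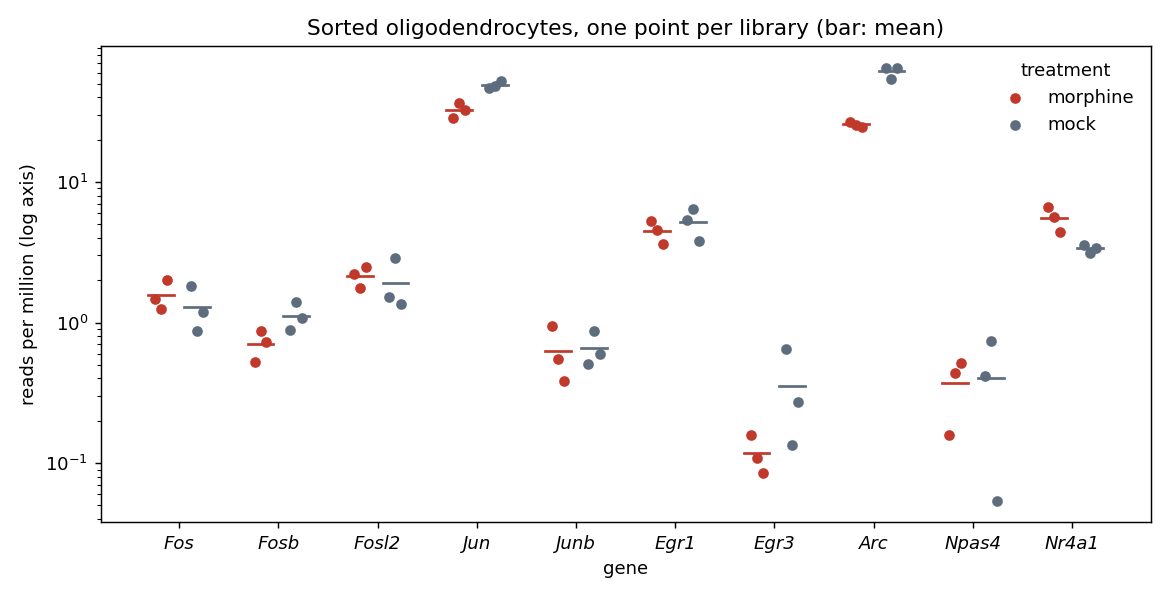
Depth-scaled reads (CPM) on a log axis for each of the 10 genes in sorted oligodendrocytes, with 1 point per library (3 morphine in red, 3 mock in grey) and a bar at each mean. The morphine points of Arc and Jun lie below all mock points, those of Nr4a1 above, while Fos, Fosl2, Junb and Egr1 overlap.

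The other genes did not pass the test in the sorted cells. Of the 10, 8 had enough reads to be tested and 3 were called, 1 higher and 2 lower, against 14.8% of the 15750 genes tested (8.1% higher and 6.68% lower). Fosb had 0.527, 0.874 and 0.725 CPM in morphine libraries and 0.881, 1.4 and 1.08 CPM in mock libraries, a log2 fold change of -0.62 (SE 0.43, edgeR adjusted p = 0.422). With Arc, Jun and Fosb, 3 of the 8 had all morphine libraries below all mock libraries, as did 16.0% of all genes tested, and 1 (Nr4a1) had them all above, as did 13.1%.

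The log2 fold changes of Fos, Fosl2, Egr1 and Junb were 0.30 (SE 0.352), 0.22, -0.19 and -0.03 in the sorted cells, and edgeR adjusted p lay between 0.639 and 0.98. Egr3 had 3, 2 and 2 reads in morphine libraries against 14, 2 and 5 in mock libraries, and Npas4 had 3, 8 and 12 against 9, 11 and 1, too few for a test. The median log2 fold change of the 8 genes was -0.11, beside -0.02 for all genes. Corrected for exon length (RPKM), Arc (8.39 ± 0.387 in morphine, 20 ± 2.03 in mock, SD, n = 3 each) and Jun (10.2 ± 1.2 in morphine, 15.5 ± 0.94 in mock) were the most abundant of the 10. Nr4a1 (1.59 ± 0.322 in morphine, 0.961 ± 0.0627 in mock) and Egr1 (1.00 ± 0.185 in morphine, 1.16 ± 0.301 in mock) followed. Nr4a1 lay above Egr1 in morphine. In mock their means lay within the SD of Egr1, and mock library 3 had Nr4a1 (0.972) above Egr1 (0.845), so mock gives no order.

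Genes around the 10 moved unevenly in the same libraries, where 8.1% of all genes tested were called higher and 6.68% lower. Of 35 other rapid response genes tested, 9 were called higher and 3 lower in morphine. This list and those below were chosen with earlier results of these data known, so their shares are descriptions and not independent support. Sgk1, a serum and glucocorticoid induced kinase, averaged 1601 ± 89.4 CPM in morphine libraries and 103 ± 9.12 CPM in mock libraries (SD, n = 3 each), a log2 fold change of 3.98 (edgeR adjusted p = 1.51e-19). Per1, a clock gene, rose by 1.39 on the log2 scale, Dusp1, a phosphatase of MAP kinases, by 1.43, Csrnp1 by 1.41, Tiparp by 1.06 and Zfp36, an mRNA decay factor, by 0.83. Among 5 other AP-1 genes tested, Mafk rose (2.16) and Mafg fell (-0.32).

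Among 20 upstream regulators tested, 3 were called, a share close to the 14.8% of all genes tested. All 3 were lower: Srf, the factor of the CArG box (-0.46), the MAP kinase Mapk3 (-0.23) and Creb1, the factor of the CRE (-0.21). Among 13 late activity genes of neurons tested, the potassium channel gene Kcna1 rose (0.73) and the enkephalin precursor Penk fell (-1.95). These calls too are close to that share of all genes. Of 11 heat shock genes tested, 10 were called, all lower, led by Hspa1b at 0.478 ± 0.0457 CPM in morphine libraries and 8.54 ± 0.721 CPM in mock libraries. The summed heat shock level was 672 to 721 CPM in morphine libraries and 1106 to 1179 CPM in mock libraries. The part of this difference in the results for Arc, Jun and Nr4a1 was not tested.

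Markers of other cells were low but present in the sorted libraries, and none of them was at 0 in all libraries. Summed oligodendrocyte markers took 63943 to 64951 CPM in morphine and 60812 to 63820 CPM in mock libraries, and 2 of the 12 rose and 4 fell. Summed neuron markers took 192 to 210 CPM in morphine and 119 to 148 CPM in mock libraries, with Tubb3 called higher (1.75) and Snhg11 lower (-0.24) of 12. Tubb3 alone averaged 118 CPM in morphine and 35.4 CPM in mock libraries, and the median log2 fold change of the neuron markers was -0.14. Summed endothelial markers took 297 to 363 CPM in morphine and 268 to 297 CPM in mock libraries, with 1 of 12 called higher (Slc2a1, 0.42) and 4 lower, led by Kdr (-1.43). Slc2a1 alone averaged 277 CPM in morphine and 210 CPM in mock libraries, and the median log2 fold change of the endothelial markers was -0.46. Summed microglia markers took 69.5 to 71.6 CPM in morphine and 67.5 to 80.2 CPM in mock libraries, with 2 of 12 lower, Cx3cr1 (-0.67) and P2ry12 (-0.59). The part of these cells in the results was not tested, and in bulk samples fewer cells of a type and less RNA per cell cannot be told apart.

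Of the remaining lists in the sorted libraries, the astrocyte markers had 2 of 12 called higher (Agt at 0.77 and Fgfr3 at 0.50) and Slc1a3 lower (-0.29). Their summed level was 851 to 925 CPM in morphine and 816 to 995 CPM in mock libraries. No mural marker of 9 was called (summed mural markers 50.9 to 71.5 CPM in morphine and 58.7 to 60.1 CPM in mock libraries), and no red blood cell marker of 5 (31.1 to 32.8 CPM in morphine and 32.3 to 41.3 CPM in mock libraries for the red blood cell markers together). The precursor markers had Tnr higher (0.65) of 7 tested, at 381 to 425 CPM in morphine and 350 to 391 CPM in mock libraries in sum. The ependymal markers had Kl lower (-0.90) of 5 tested, at 249 to 699 CPM in morphine and 611 to 686 CPM in mock libraries in sum. Ttr, a choroid plexus gene in that list, averaged 524 CPM over the libraries of both groups. Among the oligodendrocyte markers Mobp rose by 0.58 and Hapln2 by 0.39 on the log2 scale, and Aspa (-0.53), Ermn (-0.47), Opalin (-0.31) and Ugt8a (-0.20) fell.

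The accumbens cells were grouped into 28 clusters without the 10 genes or other rapid response genes, and 15 classes were named from marker genes. Each name means cells with that marker profile (D1 medium spiny neuron-like and so on), and a difference from the study may come from these rebuilt names. D1 and D2 denote the dopamine receptor that separates the 2 types of medium spiny neuron, the projection neurons of the accumbens. Clusters left unnamed held 9.73% of morphine cells and 7.64% of mock cells. The macrophage class was led by Lyz2, Mrc1 and the immunoglobulin gene Igkc, with Igha and S100a8 also among its leading genes. A marker gate per cell put 27 of its 129 cells as perivascular macrophages and 62 as microglia. The class may thus be mixed, and its name is kept below with this limit.

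Most of the 10 genes were at their highest levels outside neurons. The levels below are UMIs scaled to CPM within the class, as mean and SD over the 8 pools of both treatments. Fos was highest in mural cells at 1508 ± 889 CPM, followed by ependymal cells at 1427 ± 564 CPM (7 pools), perivascular macrophages at 1418 ± 1001 CPM (7 pools) and endothelial cells at 1281 ± 1081 CPM. These 4 did not differ beyond their spread, and D1 neurons (42.4 ± 18.9 CPM), D2 neurons (40.9 ± 19.3 CPM) and newly formed oligodendrocytes (30.2 ± 19.9 CPM) were at the low end.

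Fosb and Fosl2, the other Fos family subunits, led in the same cells. Fosb was at 599 ± 508 CPM in macrophages, 333 ± 264 CPM in mural cells and 242 ± 197 CPM in endothelial cells, and at its lowest in newly formed oligodendrocytes (4.94 ± 7.35 CPM). Fosl2 was at 122 ± 108 CPM in macrophages and 77.2 ± 79.6 CPM in mural cells, against 14.9 ± 7.29 CPM in D1 neurons and 3.12 ± 2.3 CPM in newly formed oligodendrocytes. Neighbours in either order lay within 1 SD of each other, apart from microglia (39.6 ± 15.4 CPM) and excitatory neurons (24.1 ± 11.3 CPM) for Fosl2.

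Jun was highest in microglia, the resident immune cells, at 1452 ± 603 CPM, then in endothelial cells at 1278 ± 784 CPM and macrophages at 1157 ± 749 CPM, and lowest in D2 neurons at 58.5 ± 17.6 CPM. Junb was highest in macrophages at 1182 ± 811 CPM and microglia at 905 ± 461 CPM. D2 and D1 neurons held 120 ± 14.2 and 114 ± 27.9 CPM of Junb, and oligodendrocytes and newly formed oligodendrocytes held 20.6 ± 4.28 and 18.3 ± 9.66 CPM. Jun in oligodendrocytes was at 163 ± 46.9 CPM, above D1 neurons at 63.3 ± 15.2 CPM, so the Jun genes stood in opposite order in these cells.

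Egr1 was more even, with 654 ± 388 CPM in mural cells, 540 ± 315 CPM in microglia, 371 ± 129 CPM in excitatory neurons, 359 ± 71.3 CPM in D2 neurons and 349 ± 108 CPM in D1 neurons. Its lowest levels were in oligodendrocytes (66.3 ± 19.2 CPM) and newly formed oligodendrocytes (38.9 ± 13.3 CPM). Nr4a1 was at 357 ± 183 CPM in macrophages, 331 ± 253 CPM in endothelial cells, 64.8 ± 30.4 CPM in D1 neurons, 28.6 ± 7.74 CPM in oligodendrocytes and 15.5 ± 12.2 CPM in neuroblasts. Egr3 had 113 UMIs in all cells together, and its levels carry no order.

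Arc and Npas4 were at their highest in excitatory and medium spiny neurons. Arc was at 50.1 ± 25.5 CPM in excitatory neurons (7 pools), 33.9 ± 10.9 CPM in D2 neurons and 33.6 ± 10.2 CPM in D1 neurons. Ependymal cells (24.8 ± 22.1 CPM), newly formed oligodendrocytes (24.1 ± 10.9 CPM) and oligodendrocytes (23.2 ± 6.4 CPM) followed within their spread, ahead of astrocytes at 9.68 ± 1.91 CPM and oligodendrocyte precursors at 5.39 ± 5.79 CPM. Interneurons, at 15.2 ± 9.52 CPM of Arc, had a lower mean than oligodendrocytes. Npas4 was at 25.8 ± 18.1 CPM in D2 neurons, 24.3 ± 12.3 CPM in excitatory neurons and 23.7 ± 15.4 CPM in D1 neurons. Outside neurons Npas4 was at 13.9 ± 8.73 CPM in microglia, 7.49 ± 4.74 CPM in astrocytes, 6.96 ± 5.62 CPM in oligodendrocytes and 1.86 ± 2.23 CPM in endothelial cells.

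**Figure D2:**
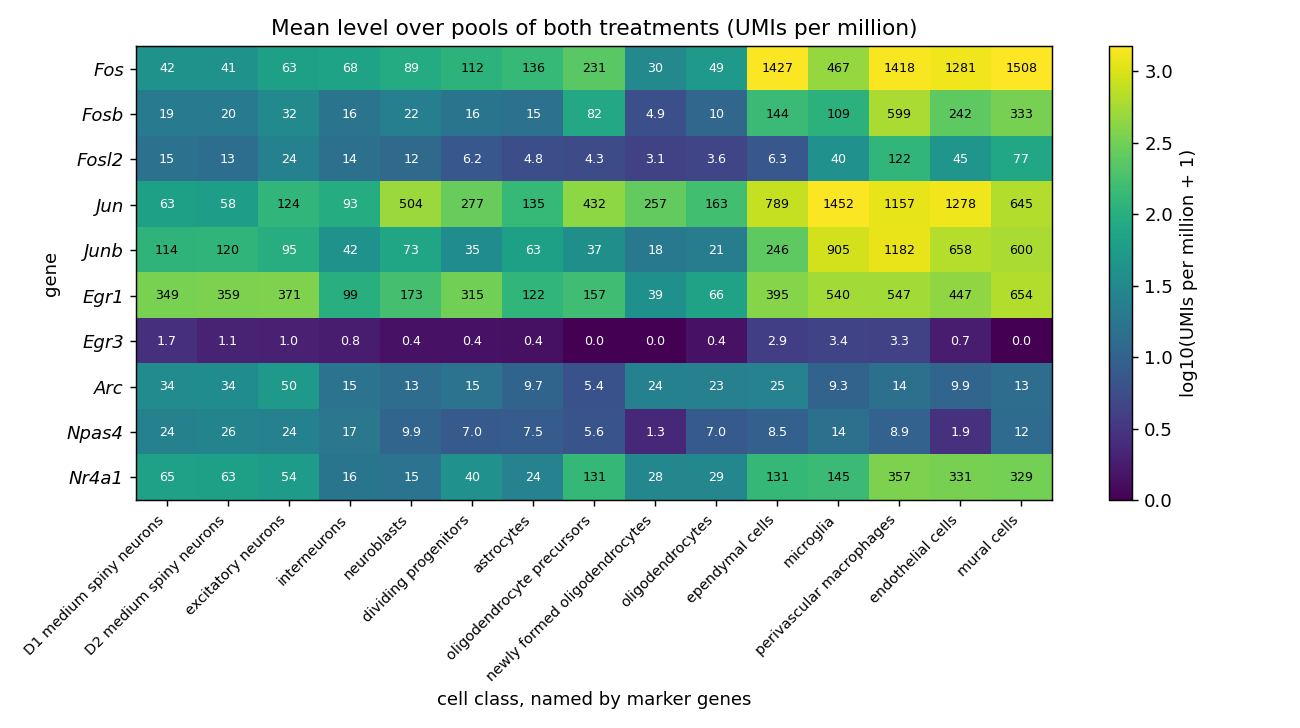
Mean CPM over pools of both treatments for each of the 10 genes (rows) in the 15 cell classes (columns), written in each tile and coloured by log10 of the level plus 1. Fos, Fosb, Jun and Junb are brightest at the right, in ependymal, immune and vascular cells, and Arc and Npas4 at the left, in medium spiny and excitatory neurons.

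The differences between neurons and glial or vascular cells were tested within pools. D1 and D2 neurons together were set against 4 other classes for each gene, and 32 of the 40 differences passed an exact two-sided paired permutation test over 8 pools after Benjamini-Hochberg adjustment, whose smallest possible raw p was 0.00781. The 32 include Egr3 against oligodendrocytes (0.14) and astrocytes (0.15 on the scale below). Each of these rests on 4 Egr3 UMIs in the glial class and carries no weight. On the log2(CPM + 10) scale neurons minus endothelial cells came to -4.22 ± 1.09 for Fos, -3.95 ± 0.757 for Jun and -1.97 ± 1.1 for Nr4a1 (SD of the pool differences), lower in neurons in 8 of 8 pools each (exact permutation test, adjusted p = 0.013). The same difference was 1.44 ± 0.727 for Npas4 and 1.14 ± 0.486 for Arc, higher in neurons in 8 of 8 pools (exact permutation test, adjusted p = 0.013). Egr1 did not separate neurons from endothelial cells (-0.06 ± 1.05, exact permutation test, adjusted p = 0.898).

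Against oligodendrocytes, neurons were higher by 2.25 ± 0.445 for Egr1, 2.04 ± 0.262 for Junb and 0.88 ± 0.521 for Nr4a1 on that scale, and lower by -1.26 ± 0.358 for Jun, in 8 of 8 pools each (exact permutation test, adjusted p = 0.013). Arc was only 0.39 ± 0.355 higher in neurons than in oligodendrocytes, in 6 of 8 pools (exact permutation test, adjusted p = 0.0403). Fos did not separate them (-0.05 ± 0.603, exact permutation test, adjusted p = 0.857).

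Shares of cells with a UMI were compared after each cell was thinned to 1000 UMIs. Fos was seen in 24.7% of endothelial cells (Wilson 95% interval 22.4% to 27.2%, 330 of 1557 shallower cells left out), against 3.08% of D1 neurons (2.71% to 3.51%, 208 of 7411 left out) and 2.99% of oligodendrocytes (2.47% to 3.63%, 467 of 3840 left out). The intervals of D1 neurons and oligodendrocytes overlap, and the mean level was the higher in oligodendrocytes (49.5 CPM), so these shares carry no order between them. Jun was seen in 54.8% of microglia (51.2% to 58.3%, 341 of 1075 left out) and 6.40% of D1 neurons. Before thinning these shares were 27.6%, 8.62% and 5.39% for Fos and 56.7% and 16.6% for Jun, with median depths of 1569 UMIs in endothelial cells, 3321 in D1 neurons, 1857 in oligodendrocytes and 1226 in microglia.

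Npas4, known as a neuronal gene, was used as a rough measure of free RNA, although its share differed between the non-neuronal classes. It was seen in 0.0815% of thinned endothelial cells (0.0144% to 0.46%), 0.505% of astrocytes (0.311% to 0.819%), 0.593% of oligodendrocytes (0.384% to 0.914%) and 1.23% of microglia (0.646% to 2.31%), against 1.89% of D1 neurons (1.6% to 2.23%). Arc was seen in 2.05% of thinned oligodendrocytes (1.62% to 2.58%), against 0.663% of astrocytes (0.434% to 1.01%, median depth 1460 UMIs) and 0.681% of microglia (0.291% to 1.58%). The oligodendrocyte share of Arc lay above the Npas4 share of the same cells and above the Arc share of astrocytes, beyond the counting intervals. The Arc shares of astrocytes and microglia did not exceed their Npas4 shares beyond those intervals. Arc had more UMIs than Npas4 in all cells together (3115 against 2004), so free RNA need not give equal shares of both. The part of free RNA in the Arc shares of any class was not tested. Before thinning the Arc shares were 4.4% in oligodendrocytes, 1.47% in astrocytes and 1.4% in microglia, and the Npas4 shares 1.2%, 1.09% and 1.86%.

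A few cells carried much of the message. Fos had UMIs in 11.3% of the 32341 cells, and the top 1% of cells held 48.2% of its 14572 UMIs, with up to 215 in a cell. The same top share was 19.4% for Egr1, which was seen in 33.9% of cells, and 56.3% for Npas4, seen in 3.63% of cells. Endothelial cells made up 4.81% of cells and 3.31% of all UMIs, and held 28.6% of Fos UMIs and 22.1% of Jun UMIs. D1 neurons, with 28.6% of all UMIs, held 35.3% of Egr1, 32.9% of Arc and 36.8% of Npas4 UMIs.

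Across the 15 classes the mean levels of Fos and Fosb had a Pearson r of 0.94, and Fos and Nr4a1 of 0.85, whereas Fos and Arc had -0.48. These are descriptions over classes that share libraries. Among 12462 genes with at least 20 CPM in some class, those most like Fos were Btg2 (r = 0.93) and Tagln2, those most like Junb were Gadd45b (0.95) and Gpx1, and those most like Jun were Plscr3 (0.93) and Socs3. Fosb was most like Myo1c and Sertad1, Fosl2 most like Cyb5r1 and Cbfa2t3, Egr1 most like Pkig and Cdk9, and Nr4a1 most like Myh9 and Myo1c. Npas4 was most like Calm2 (0.95) and Map9, Arc most like Wbp11 (0.80) and Rtn4, and Egr3, on few UMIs, most like Bank1 and Rasa4.

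Over all accumbens cells none of the 10 genes passed the test after morphine. Of the 10, 8 had log2 fold changes of 0.27 or more, and Jun (0.01) and Npas4 (0.00) lay at 0 and changed sign under other settings. Fosb fell below 0 without morphine pool 3 (-0.04) and Egr1 in younger pools alone (-0.03). A fold change above 0 was found for 50% of the 15028 genes tested, and for 10 of the 10. The median of the 10 was 0.41, beside 0.00 for all genes. Arc was at 24, 29.6, 31.5 and 46.2 CPM in morphine pools, against 18.4, 25.3, 26.8 and 21 CPM in mock pools, a log2 fold change of 0.61 (SE 0.213, unadjusted p = 0.0172, edgeR adjusted p = 1). Morphine pool 1 lay below 2 of the mock pools, so the groups overlapped.

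Among the other genes over all cells, Egr3 had a log2 fold change of 0.54, Nr4a1 0.51, Fos 0.50 (SE 0.455), Egr1 0.42, Junb 0.40, Fosl2 0.39 and Fosb 0.27. Fos ranged from 73.1 to 333 CPM in morphine pools and from 81.7 to 249 CPM in mock pools. No gene of the 15028 passed edgeR's adjusted threshold, 244 (1.62%) had an unadjusted p under 0.05, and DESeq2 called 4 genes, none of them among the 10.

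Marker levels of several cell types also differed between treatments over all cells, though no marker was called. The ependymal markers had 8 of 8 fold changes above 0 (median log2 fold change 0.60), and summed to 100.5 to 13156 CPM in morphine pools and 49.5 to 332 CPM in mock pools. That list includes the choroid plexus gene Ttr, which led an unnamed cluster, so the sum does not stand for ependymal cells alone. The microglia markers had 0 of 12 above 0 (median -0.59), at 310 to 857 CPM in morphine pools and 457 to 1212 CPM in mock pools in sum. The mural markers had 0 of 9 above 0 (median -0.28, 212 to 502 CPM in morphine and 228 to 619 CPM in mock pools), and the endothelial markers 1 of 12 (median -0.26, 681 to 1284 CPM in morphine and 675 to 1270 CPM in mock pools). The red blood cell markers had 0 of 5 above 0 (median -0.66), the astrocyte markers 3 of 12 (-0.20), the precursor markers 1 of 8 (-0.11), the neuron markers 8 of 12 (0.05) and the oligodendrocyte markers 8 of 12 (0.06). Several of the 10 genes were at their highest in ependymal, immune and vascular cells, and the part of these marker differences in the values over all cells was not tested.

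Within classes, 94 of the 150 combinations of gene and class had enough UMIs to be tested by edgeR. None passed after adjustment over all genes of the class in the main fits, which did not pair pools (DESeq2 called 0 of them too). The fold change was above 0 in 78 of the 94, against 50% of the 96334 tests of all genes over the 15 classes. An unadjusted p under 0.05 was found for 18 of them, all higher in morphine, against 2.53% of all tests in either direction. These tests share pools and are not independent of each other. Junb was above 0 in 12 of the 12 classes in which it was tested, though without morphine pool 3 it was below 0 in endothelial cells (-0.10) and macrophages (-0.21).

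In D1 neurons taken as 1 class Junb and Arc were higher in each morphine pool than in any mock pool, though neither passed the adjusted test. Junb was at 110, 136, 122 and 168 CPM in morphine pools, against 83.6, 106, 103 and 84.6 CPM in mock pools. Every morphine pool lay above every mock pool, with a log2 fold change of 0.60 (SE 0.155, unadjusted p = 0.0022, edgeR adjusted p = 1). Arc was at 35.8, 34.9, 38.8 and 53.2 CPM in morphine pools, against 22.4, 27.8, 34.6 and 21 CPM in mock pools, again without overlap (log2 fold change 0.73, SE 0.201, unadjusted p = 0.00324, edgeR adjusted p = 1).

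In D1 neurons 2 of the 9 genes tested had all morphine pools above all mock pools, as did 0.573% of the 11521 genes tested, and 5 had an unadjusted p under 0.05, as did 2.69%. Fold changes were above 0 for 8 of the 9, against 50.6% of genes. Nr4a1 and Fosl2 are given here after their values were seen. Nr4a1 was at 46.8, 110, 102 and 77.1 CPM in morphine pools and 38.9, 70.6, 45.2 and 26.9 CPM in mock pools (log2 fold change 0.99, SE 0.287, unadjusted p = 0.00442, edgeR adjusted p = 1), and morphine pool 1 lay within the mock range.

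Fosl2 in D1 neurons was at 12.4, 27.7, 12.7 and 22.8 CPM in morphine pools and 11.7, 17.2, 8.87 and 5.8 CPM in mock pools, a log2 fold change of 0.95 (SE 0.341, unadjusted p = 0.016, edgeR adjusted p = 1). Jun had a log2 fold change of -0.04 (SE 0.213) over the D1 class, and values above 0 in each of its clusters taken alone. Thinned to 1000 UMIs, Arc was seen in 3.41% ± 0.9 of D1 neurons in morphine pools and 2.41% ± 0.273 in mock pools (SD, n = 4 each), and Junb in 9.45% ± 1.86 and 7.94% ± 0.443.

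**Figure D3:**
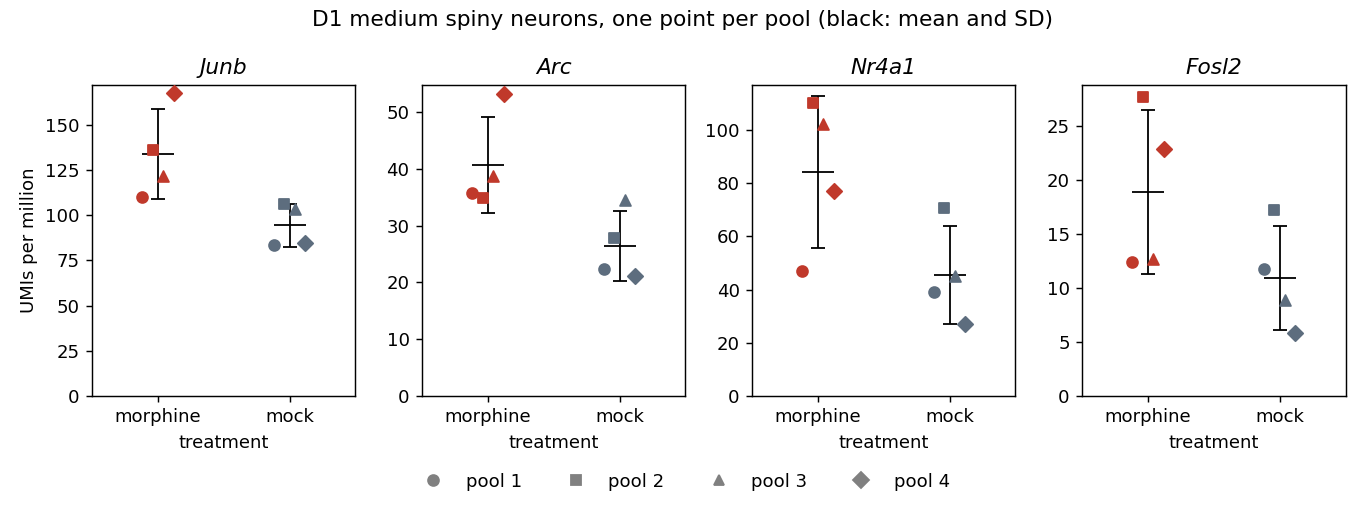
CPM of Junb, Arc, Nr4a1 and Fosl2 in D1 medium spiny neurons, with 1 point per pool (morphine left in red, mock right in grey, symbols for the pool number) and the mean and SD in black. Over this class as a whole Junb and Arc do not overlap between treatments, while Nr4a1 and Fosl2 do.

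The D1 class joined a main cluster and a smaller one with Tac2, Lypd1, Foxp2 and Tshz1 among its leading genes, which held 36.3% of D1 neurons in morphine and 40.83% in mock. Its share differed widely by pool, at 21.3%, 59.1%, 7.61% and 28.9% in morphine pools 1 to 4 and at 38.2%, 24.3%, 63.8% and 44.5% in mock pools 1 to 4, so the D1 values above mix the clusters in unequal parts. In the smaller cluster alone, fitted after the data were seen, Junb ranged from 116 to 213 CPM in morphine pools and from 84.2 to 97.9 CPM in mock pools (log2 fold change 0.93, SE 0.184, unadjusted p = 5.05e-05, edgeR adjusted p = 0.285). Nr4a1 there had a log2 fold change of 1.18 (edgeR adjusted p = 0.417). Arc there was at 21.1 to 110 CPM in morphine pools and 14 to 34.5 CPM in mock pools, with overlap. Arc overlapped in the main cluster too, at 34 to 55.2 CPM in morphine pools and 19.1 to 34.8 CPM in mock pools. In the main cluster alone Junb was at 94.7 to 154 CPM in morphine pools and 80.1 to 113 CPM in mock pools, with overlap, Fos had a log2 fold change of 1.11 and Arc of 0.83 (edgeR adjusted p = 1 for all 3). Jun had a log2 fold change of 0.33 in the main cluster (SE 0.171, unadjusted p = 0.0719) and of 0.17 in the smaller one (SE 0.254, unadjusted p = 0.5). Jun ranged from 43 to 56.3 CPM in morphine pools and 33 to 46.1 CPM in mock pools of the main cluster, and from 64 to 188 CPM in morphine pools and 72.6 to 127 CPM in mock pools of the smaller one.

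The excitatory class was led by Cck, Nrn1, Neurod6 and Slc17a7. It held 9 to 425 cells in morphine pools and 67 to 538 cells in mock pools. Whether these cells belong to the accumbens or came with neighbouring tissue was not tested. In this class Fos was at 43.9, 140 and 100.4 CPM in 3 morphine pools. It was at 31.5, 30.5, 61.2 and 32.9 CPM in the 4 mock pools, and morphine pool 3 was left out with 9 such cells. The log2 fold change was 1.46 (SE 0.316, unadjusted p = 0.000302, edgeR adjusted p = 1), and without the filter on low counts it was called (edgeR adjusted p = 0.00137). Morphine pool 1 rested on 3 Fos UMIs from 21 cells.

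Junb in excitatory neurons was at 87.7, 149 and 138 CPM in morphine pools and 59.9, 91.5, 72.8 and 67.6 CPM in mock pools (log2 fold change 0.93, SE 0.231, unadjusted p = 0.00107, edgeR adjusted p = 1). Jun and Arc are given after their values were seen. Jun was at 146, 153 and 158 CPM in morphine pools and 78.8, 113, 95 and 123 CPM in mock pools, without overlap (0.58, SE 0.22), which 1.2% of 9332 genes also showed. Arc was at 43.9, 72.1 and 90.7 CPM in morphine pools and 12.6, 51.9, 47.5 and 31.9 CPM in mock pools (1.11, SE 0.333, unadjusted p = 0.00425, edgeR adjusted p = 1). Of the 9 genes tested there, 9 had fold changes above 0, against 47.3% of genes, and 4 had an unadjusted p under 0.05, against 0.986%.

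Elsewhere Junb was again among the genes of smallest p. In oligodendrocyte precursors it was at 63.2, 44.5, 53.2 and 44.4 CPM in morphine pools and 20.8, 22.9, 23.7 and 22.2 CPM in mock pools, on 4 to 23 UMIs per pool. These pools did not overlap, as for 0.927% of the 6257 genes tested (log2 fold change 1.18, SE 0.359, unadjusted p = 0.00329, edgeR adjusted p = 1). In ependymal cells Junb was at 345, 246, 377 and 263 CPM in morphine pools and 110, 201 and 182 CPM in 3 mock pools, also apart, as for 2.06% of 3207 genes (0.98, SE 0.303, edgeR adjusted p = 0.998).

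Further class values with the smallest p, none passing the test (edgeR adjusted p from 0.956), were as follows on the log2 scale. Nr4a1 had 1.02 in ependymal cells, 0.61 in astrocytes, 0.59 in interneurons, 0.56 in macrophages, 0.55 in oligodendrocyte precursors and 0.52 in endothelial cells. Junb had 0.89 in astrocytes, 0.49 in endothelial cells and 0.42 in macrophages. Egr1 had 0.83 in newly formed oligodendrocytes, 0.78 in dividing progenitors, 0.51 in microglia, 0.29 in D2 neurons and 0.26 in mural cells, but -0.43 in neuroblasts.

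Arc had 0.58 in D2 neurons, where 6 of 9 genes were above 0, as were 50.8% of genes. Fosl2 had 0.97 in interneurons, where 4 of 9 genes were above 0, against 49.6% of genes, with a median of -0.02. Of the others there, Fosb had -0.41, Fos -0.38, Npas4 -0.26, Arc -0.18, Jun -0.02, Egr1 0.03 and Junb 0.19. Fos had 0.73 in microglia and 0.46 in dividing progenitors, and Fosb -0.29 in mural cells. Jun had -0.57 in neuroblasts and -0.27 in newly formed oligodendrocytes.

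In the oligodendrocytes of the accumbens none of the genes passed the test. Arc, Jun and Nr4a1 are given there because they were called in the sorted cells, after their values were seen. Arc was at 23.2, 23.8, 30 and 16.5 CPM in morphine pools and 21.3, 19.5, 34.8 and 16.5 CPM in mock pools (log2 fold change 0.08, SE 0.311, edgeR adjusted p = 1), on 18 to 45 UMIs in morphine pools. Jun was at 103, 107, 197 and 137 CPM in morphine pools and 182, 143, 220 and 216 CPM in mock pools (-0.42, SE 0.257, unadjusted p = 0.124, edgeR adjusted p = 1). The groups overlapped for Jun, and its fold change had the sign seen in the sorted cells.

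Junb in accumbens oligodendrocytes was at 23.2, 24.3, 23.6 and 22.7 CPM in morphine pools and 19.7, 21.5, 11.1 and 19 CPM in mock pools, apart by a small margin, as for 1.24% of the 8787 genes tested (0.41, SE 0.242, edgeR adjusted p = 1). Egr1 had a log2 fold change of 0.40 and Nr4a1 of 0.04. The sorted cells came from whole brain and another age, so tissue, age and method cannot be told apart between the data sets.

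**Figure D4:**
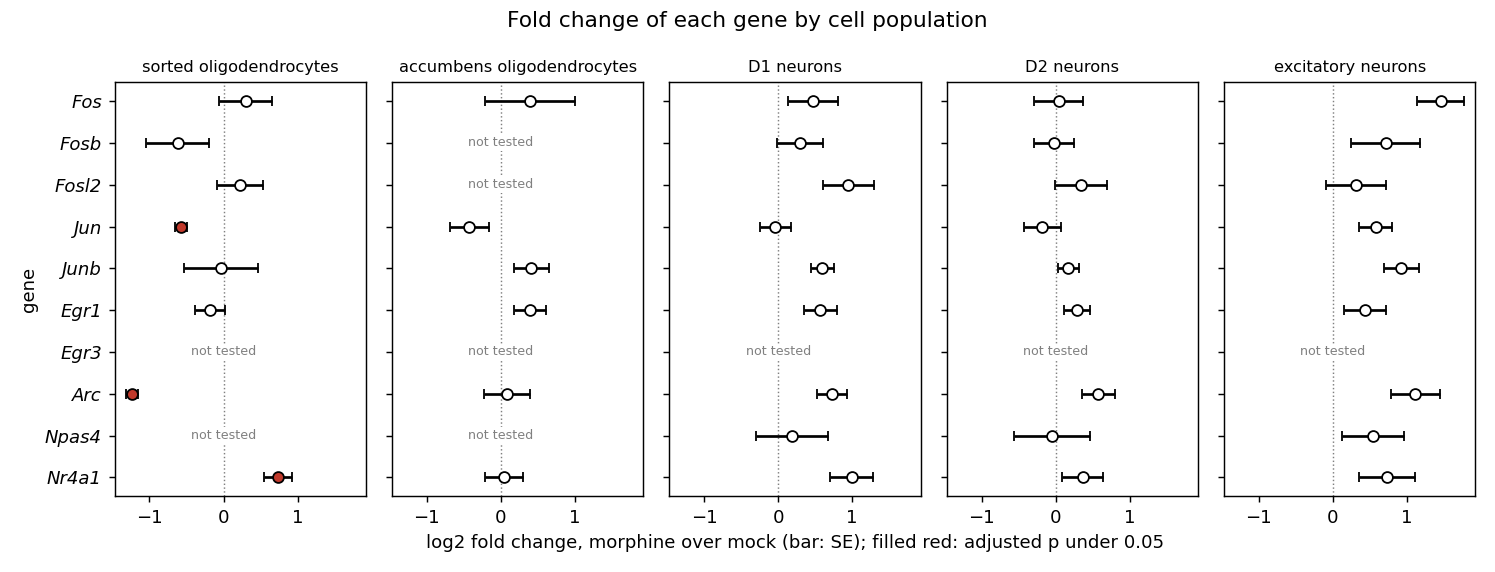
Log2 fold change of morphine over mock (points) with its SE (bars) for each of the 10 genes in sorted oligodendrocytes and in 4 accumbens classes, filled red where the adjusted p was under 0.05. The only filled points are Arc, Jun and Nr4a1 in sorted oligodendrocytes, and most points of D1 and excitatory neurons lie right of 0.

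Whether oligodendrocytes and other classes of the same pools differed in their morphine difference was tested for 41 combinations of gene and class, and none passed by edgeR (0 called, 2 with an unadjusted p under 0.05). Against D1 neurons, oligodendrocytes minus neurons came to -0.93 for Nr4a1 (SE 0.309, unadjusted p = 0.00965, edgeR adjusted p = 1), -1.58 for Fosl2 (SE 0.677, unadjusted p = 0.0358) and -0.59 for Arc (SE 0.315, unadjusted p = 0.0832).

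In endothelial cells the levels of several of the genes separated pools by the age of the mice, a comparison added after the values were seen. There Fos was at 3271 and 1434 CPM in older morphine pools and 2472 and 1168 CPM in older mock pools. It was at 708 and 316 CPM in younger morphine pools and 650 and 227 CPM in younger mock pools. The values stand in pool order within each age, and in each of the 4 pairs of same-numbered pools, which share their ages, the morphine pool was the higher for Fos. Jun was at 1435 to 2410 CPM in the 4 older pools and 553 to 672 CPM in the 4 younger pools. For 5 of the 7 genes tested in endothelial cells (Fos, Fosb, Jun, Junb and Egr1) every older pool lay above every younger pool, as for 4.67% of the 6722 genes tested.

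The same held in microglia for Fos, Fosb and Egr1 (3 of 7, against 2.83% of genes), in mural cells for the same 3 of 6 genes (against 2.39%) in macrophages for Fos, Fosb and Jun (3 of 6, against 4.95%) and in oligodendrocyte precursors for Fosb, Jun and Egr1 (3 of 6, against 4.06%). It held for Fosb and Egr1 in ependymal cells (2 of 6, against 4.86%), and for Fos alone in dividing progenitors (1 of 3, against 3.41%) and oligodendrocytes (1 of 6, against 1.76%). Mean Fosb in endothelial cells was 5.63 times as high and mean Fos 4.39 times as high in older as in younger pools. In D1 and D2 neurons only Npas4 did so (1 of 9 each, against 1.91% and 2.45%). In interneurons Npas4 was again higher in every older pool (1 of 9, against 3.05%), and Arc lower in every older pool (1 of 9, against 6.46%). None of the genes tested was apart by age in astrocytes, excitatory neurons, neuroblasts or newly formed oligodendrocytes. Over all cells the older pools were apart for Fosb and Npas4 (2 of 10, against 2.2%). No test of age was made, and age and the occasion of each preparation cannot be told apart.

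**Figure D5:**
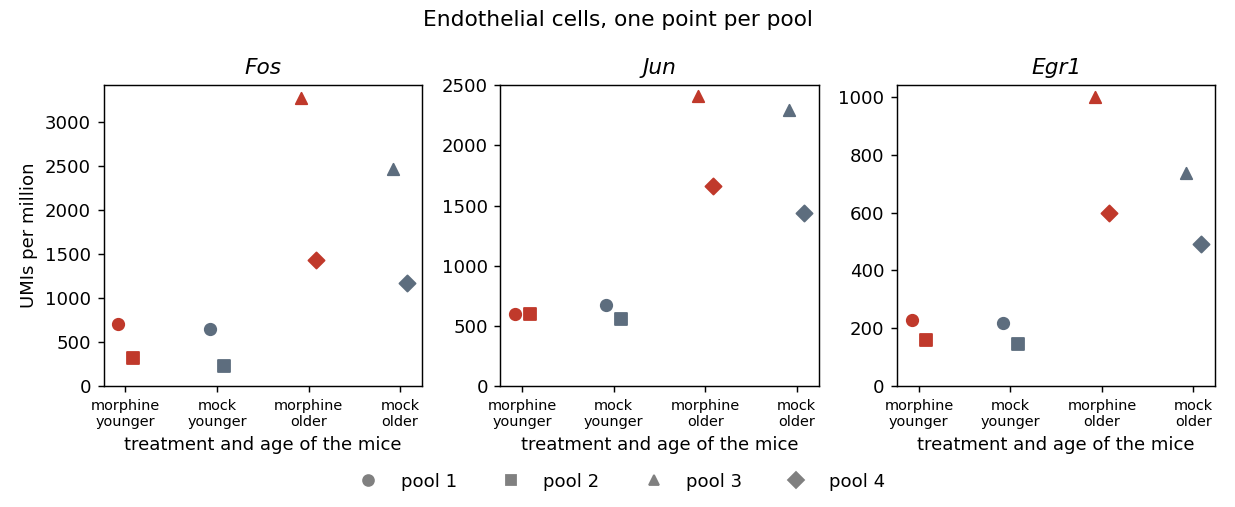
CPM of Fos, Jun and Egr1 in endothelial cells, with 1 point per pool (morphine in red, mock in grey) for younger mice (pools 1 and 2) and older mice (pools 3 and 4). All 4 older pools lie above all 4 younger pools for each gene, and the ranges of the treatments overlap, though within each pool number the morphine point lies above the mock point for Fos and Egr1.

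Around the 10 genes, 41 other rapid response genes were tested over all accumbens cells, 32 with fold changes above 0, none called, and a median log2 fold change of 0.20. In D1 neurons 23 of 35 were above 0 (median 0.12), and in excitatory neurons 25 of 29 (median 0.34). Summed over the 42 genes, D1 neurons held 1441 to 1633 CPM in morphine pools and 1330 to 1690 CPM in mock pools. Late activity genes had 13 of 21 above 0 over all cells (median 0.06). The heat shock genes had 4 of 12 above 0 (median -0.04) and summed to 7815 to 9178 CPM in morphine pools and 8352 to 9938 CPM in mock pools.

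Markers of other cells were also present in the D1 neurons. Summed endothelial markers ranged from 59.1 to 165 CPM in morphine pools and from 68 to 196 CPM in mock pools of D1 neurons. Summed microglia markers ranged from 27.4 to 87.5 CPM in morphine pools and from 38.5 to 183 CPM in mock pools. Summed ependymal markers, the choroid plexus gene Ttr among them, reached 2644 CPM in a morphine pool of D1 neurons and 165 CPM in a mock pool. Their part in the values of the 10 genes was not tested.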

How the data were processed

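Drop-seq of 4 morphine and 4 mock accumbens pools and bulk RNA-seq of 3 morphine and 3 mock libraries of sorted oligodendrocytes were analysed. The authors deposited UMI counts per gene and barcode, and raw read counts per gene for the sorted libraries. Per the submitters' processing notes, mm10, STAR 2.4.2a, Trimmomatic 0.36, HTSeq, DESeq2 and DESeq were used. The authors' deposited comparison table holds the mean normalised signal, log2 fold changes, the test statistic (a score) and p-values, made with DESeq2 per its headers' names. The columns of the sorted counts name the treatment and not the sample, so their numbers only name libraries. Rows without a gene held 69.5% to 74.3% of sorted reads and were left out. Symbols were brought to 1 naming (1221 renamed), and 6120 symbols seen only in the pools of replicate 1 (0.777% of their UMIs) were left out.

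Barcodes passed with 300 or more detected genes and a mitochondrial share up to 20%, and were clustered with scanpy 1.11.5 (2000 variable genes without the activity genes, 30 components, 15 neighbours, resolution 1.0). Scrublet calls were removed, but it called 0 to 0.209% of cells in 4 pools and so did not work there, and doublets remain possible in these. Clusters were named from marker genes with score limits of 0.6 and 1.2 set after the data were seen. UMIs were summed per pool and class, with at least 10 cells per pool in at least 3 pools of each group.

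Tests across all genes used edgeR 4.0.16 quasi-likelihood (TMM, filterByExpr) with Benjamini-Hochberg adjustment at 0.05 over all genes tested. Levels between classes used exact paired permutation tests of log2(CPM + 10). Alternatives were DESeq2 1.42.0, RLE factors, no filter, age, a replicate block, left-out libraries, called doublets kept, a minimum of 1000 UMIs and a marker gate per cell. The tests were tried on simulated data. There edgeR recovered a log2 fold change of 1 in either direction for 72.8% of changed genes in the sorted set and 56.1% over all cells. Among the classes it recovered 68.7% in D1 neurons, 42.3% in oligodendrocytes and 12.0% in microglia. False calls made up 2.63% (all cells) to 7.06% (microglia) of calls. A class without a call may thus still hold changes of this size. The labels do not say whether libraries of a group came from separate preparations, and the p-values measure the spread between these samples.

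The 10 genes and all lists were chosen with earlier results of these data known. Named by rule were the genes called in the sorted cells and, per accumbens class, the 2 of smallest p; D1 Nr4a1 and Fosl2, excitatory Arc and Jun, oligodendrocyte Arc, Jun and Nr4a1, the other interneuron values, and the values by D1 cluster and by age were added after their values were seen.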

Additional observations from a re-analysis of the deposited data

Results flagged for a closer look

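In 81 groups of values checked, 3 had a sample set apart from the rest of its group, where chance flags about 1 in 20 groups. Fos over all cells was at 249 CPM in mock pool 3, against 81.7 to 102 CPM in the other mock pools. Fos in excitatory neurons was at 61.2 CPM in mock pool 3, against 30.5 to 32.9 CPM in the other mock pools. Jun in neuroblasts was at 1173 CPM in mock pool 1.

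Jun had log2 fold changes of opposite sign in sorted oligodendrocytes (-0.58) and excitatory neurons of the accumbens pools (0.58), without overlap of morphine and mock samples in either. Arc likewise had -1.23 in sorted oligodendrocytes and 0.73 in D1 neurons. These differences between the data sets were not tested.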

How the results depend on the processing

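The 3 calls in sorted oligodendrocytes held under every setting run except without 1 morphine library (2 calls, Nr4a1 lost), and Nr4a1 ranged from 0.58 to 0.90 over left-out libraries. Over the accumbens classes 0 tests were called, but 1 without the filter on low counts and 1 with the replicate block, each Fos in excitatory neurons (1.46 with adjusted p = 0.00137, and 1.68 with adjusted p = 0.0273 by edgeR). The block changed no other call among the immediate early genes, but it did change calls among all genes. In accumbens oligodendrocytes it called 33 genes higher and 8 lower, against 0 in the main fit. Genes with an unadjusted edgeR p under 0.05 rose from 244 to 670 over all cells and from 310 to 597 in D1 neurons. Over all cells and in D1 neurons no gene was called with the block. Deviations of same-numbered pools correlated at 0.57, 0.01, -0.01 and 0.78 over all cells, and at 0.40, 0.06, 0.42 and 0.29 in endothelial cells. Not every pair passed 0.1 in either, and no label names a shared preparation, so the main fits did not pair pools. Same-numbered pools do share their mouse ages and their number of barcodes. Pairing therefore remains possible, and the unpaired results depend on this choice. No block was fitted for the sorted libraries, whose column numbers could not be tied to single samples. Level tests gave 26 to 32 calls with a pool left out and 31 with the marker gate.

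Signs changed as follows. Over all cells Jun was at -0.013 without the filter and with at least 1000 UMIs, -0.021 with the block, -0.048 with age as a covariate and -0.30 in younger pools, and Npas4 at -0.0054 with RLE factors, -0.019 without the filter, -0.018 with DESeq2 and -0.079 in older pools. In younger pools alone Egr1 was at -0.028 over all cells, -0.40 in microglia and -0.12 in mural cells, and Fos at -0.75 in dividing progenitors and -0.45 in microglia. In older pools alone Jun was at 0.035 in newly formed oligodendrocytes. With a library left out, sorted Junb ranged from -0.47 to 0.25, and over all cells Fosb from -0.038 to 0.61, Jun from -0.25 to 0.21 and Npas4 from -0.51 to 0.40. Fos ranged from -0.27 to 0.82 in dividing progenitors, Nr4a1 from -0.27 to 1.14 and Junb from -0.10 to 0.91 in endothelial cells, Egr1 from -0.063 to 0.82 and Fosb from -0.64 to 0.54 in mural cells, Jun from -0.79 to 0.16 in neuroblasts and Junb from -0.21 to 1.03 in macrophages. The cause was not tested.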
